A study of Mus musculus with 10 samples.

Results

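The 31 genes described here mark reactive astrocytes and were measured by RNA-sequencing in the lumbar spinal cord of mice. They were chosen by symbol, and each of the 31 was matched through its Ensembl identifier to the count table, which holds 32506 genes. Of them 5 belong to the set named A1, 9 to the set named A2, and 17 are pan-reactive genes or their regulators, here divided into 13 structural, surface or secreted genes and 4 genes of cytokine signaling. Non-transgenic wild type mice (WT) were compared with mice that overexpress the mutant enzyme SOD1 G86R, a model of amyotrophic lateral sclerosis, with 5 mice per genotype and 1 library per mouse. All 10 were FVB/N females of 95 days, and the controls came from the same litters. At this age SOD1 G86R mice have motor symptoms, whose severity varies between animals. Each animal was anesthetized and perfused with buffer before the cord was removed. The promoter of the transgene is not given in the sources used here.

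Astrocytes support neurons by clearing glutamate and potassium, and after injury or in disease they become reactive: they enlarge, assemble more intermediate filaments and secrete proteins that act on neighbouring cells. A common set of genes rises in many kinds of injury (pan-reactive genes), while the sets A1 and A2 were defined in mouse astrocytes after systemic endotoxin and after ischemia, respectively. A main route to reactivity runs through cytokines of the interleukin-6 family, which bind receptors that share the subunit gp130 and lead to phosphorylation of the transcription factor STAT3. In cultured astrocytes the A1 set was induced by signals of microglia, namely IL-1 alpha, TNF and C1q.

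The libraries of WT mice held 29333590 to 46003999 counts, with a median of 32026898, and those of the SOD1 G86R group 31494723 to 37080445, with a median of 35623961. Levels are given as CPM, counts relative to a library size that TMM has scaled for differences in composition. Sod1, whose counts include the transgene's RNA, was at 127 to 210 CPM in WT mice and 3918 to 6415 CPM in SOD1 G86R mice, so that it matched every label. The lowest Sod1 of the transgenic mice, 3918 CPM, was that of SOD1 G86R replicate 4. This library also held RNA of dorsal root ganglia: 639 counts of Scn10a, which encodes a sodium channel of pain-sensing neurons, were found in it and 0 to 3 elsewhere, and 461 counts of Avil against 8 to 18. Results are therefore given with and without this mouse. Genotypes were compared by edgeR's quasi-likelihood test over the 16974 genes that passed its filter on low counts, at an adjusted p under 0.01, the limit used in the study. The test set the difference between genotypes against the spread between mice and did not model litters.

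Of the 31 genes, 30 passed the filter and 3 rose in SOD1 G86R mice: Stat3, Socs3 and Ptx3. None fell and 27 did not pass the test. Across all genes tested 147 were higher, or 0.866%, and 43 were lower, or 0.253%. The log2 fold change of SOD1 G86R over WT (log2FC) was positive in 29 of the 30 genes and negative in 1, with a median of 0.79 against -0.01 over all genes tested. At an unadjusted p under 0.05, 23 of the 30 were higher and 0 lower, where 10.8% of all genes tested were higher. In 8 of the 31 genes all SOD1 G86R mice were above all WT mice, as in 3.09% of all genes tested. These 8 include Slc10a6, the gene that failed the filter and is thus not among the genes tested. In bulk tissue, more reactive cells, more RNA per cell and RNA of other cell types cannot be told apart.

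SOD1 G86R replicate 4 lay near the WT mice. It had the lowest level of its group in 23 of the 31 genes, the untested Slc10a6 among them, against 24% of all genes tested. It was within the range of the WT mice in 16. On the scale log2(CPM + 0.5), its median difference from the WT mean over the 31 genes was 0.11. The same median was 1.12, 0.64, 0.67 and 1.13 in SOD1 G86R replicates 1, 2, 3 and 5. Replicate 1 had the highest level of the group in 15 genes and replicate 5 in 12. Leaving out the lowest mouse of a group raises its mean. In the 23 genes above, a larger difference without replicate 4 was thus given in advance and is no independent support. Without replicate 4, 18 of 30 genes passed the test, where 4.55% of 17184 genes were higher, and the median log2FC was 0.94. Without this mouse the groups did not overlap in 22 of the 31 genes, again with Slc10a6 among them, against 7.45% of all genes tested. The calls were sensitive to the other mice too: in the 9 fits that left out 1 of them no gene of the 31 passed edgeR's test, although 21 to 24 were higher at an unadjusted p under 0.05. In these fits the smallest adjusted p among the 31 genes was between 0.0131 and 0.029. DESeq2, the tool of the study, called 21 of the 31 genes higher in all 10 mice, against 3.82% of 19149 genes, whereas limma voom called 0, with 23 higher at an unadjusted p under 0.05. Whether the ganglion RNA or the lower Sod1 of replicate 4 plays a part in its levels was not tested. The study states that symptoms differed in severity between SOD1 G86R mice of this age, and the part of severity was not tested either.

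**Figure D1:**
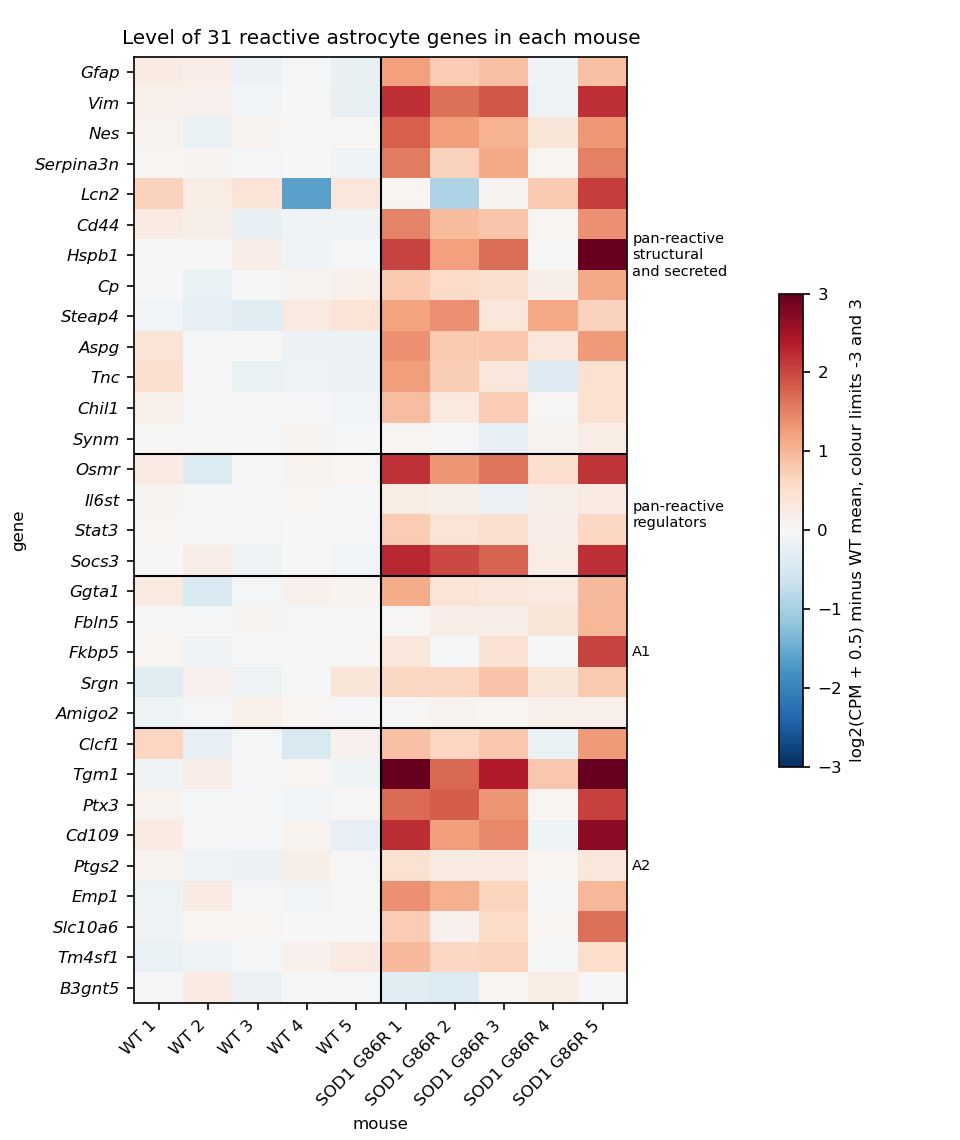
Level of each of the 31 genes (rows, grouped by role) in each of the 10 mice (columns), as log2(CPM + 0.5) minus the mean of the WT mice, in colour with limits of -3 and 3. SOD1 G86R replicates 1, 2, 3 and 5 are red in most rows, with medians of 1.12, 0.64, 0.67 and 1.13, while replicate 4, with a median of 0.11, resembles the WT columns.

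Among the 4 genes of interleukin-6 family signaling 2 rose, Stat3 and Socs3, and 3 were higher at an unadjusted p under 0.05 (median log2FC 1.12). Socs3 (ENSMUSG00000053113, chromosome 11 from 117966079 to 117970047 in GENCODE M21 for GRCm38) encodes the inhibitor that STAT3 induces and that blocks the receptor in return. It was at 1.98, 2.29, 1.73, 1.95 and 1.80 CPM in WT replicates 1 to 5 and at 11.2, 9.04, 7.87, 2.37 and 10.6 CPM in SOD1 G86R replicates 1 to 5. The groups did not overlap, but replicate 4 exceeded the highest WT mouse by little. The mean was 4.21 times that of WT, a log2FC of 2.08 (standard error, SE, 0.34, adjusted p = 0.00917 by edgeR), and without replicate 4 the log2FC was 2.31 (SE 0.13, adjusted p = 1.93e-07 by edgeR). Stat3 itself (ENSMUSG00000004040, chromosome 11 from 100885098 to 100939540) had a smaller fold change and, at 10.7 CPM per kilobase of exon in the WT mean against 0.674 CPM for Socs3, was more abundant. Its level was 107, 103, 98.5, 103 and 97.6 CPM in WT and 173, 136, 142, 116 and 156 CPM in SOD1 G86R mice. Again every SOD1 G86R mouse lay above every WT mouse. The log2FC of Stat3 was 0.51 (SE 0.09, adjusted p = 0.00665 by edgeR), and 0.58 without replicate 4 (SE 0.07, adjusted p = 6.95e-05 by edgeR).

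Osmr, the receptor subunit that binds oncostatin M, was at 6.72, 4.07, 5.62, 6.05 and 5.77 CPM in WT and at 26.8, 14.8, 18.0, 8.07 and 26.5 CPM in SOD1 G86R mice. The groups did not overlap. Its log2FC of 1.74 missed the threshold (SE 0.31, adjusted p = 0.0129 by edgeR) and passed it without replicate 4, at 1.93 (SE 0.19, adjusted p = 3.95e-05 by edgeR). Il6st, which encodes gp130, was nearly level between genotypes, with 143 CPM in WT (SD 6.51, n = 5) and 157 CPM (SD 17.2, n = 5) in the SOD1 G86R group and a log2FC of 0.14 (SE 0.07, adjusted p = 0.369 by edgeR). Its lowest SOD1 G86R mouse was replicate 3, at 127 CPM, and the other 4 lay between 161 and 169 CPM. Per kilobase of exon, the mean level of gp130's gene in WT was 12.9 CPM and that of Osmr 0.466 CPM. In the tissue as a whole, RNA of the shared subunit was thus more abundant than that of Osmr.

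STAT3 binds DNA at the letters TTCNNNGAA, a palindrome that reads alike on both strands. The window from 250 bases before to 50 bases after the start of transcription, taken from RefSeq for GRCm38.p6, was found for 29 of the 31 genes, with a pair of windows in 6 of them, and 5 genes, or 17.2%, held this motif in a window. It was held by 9.55% of the 27025 genes with a window. The 5 genes were Socs3, Tgm1, Gfap, Steap4 and Emp1. A match is a description of the letters and says nothing on binding. The window of Socs3 is shown because this gene is the 1 called gene that holds the motif. Tgm1 was added after its values had been seen, as the A2 gene with the largest fold change. The window shown for it holds 2 copies, as does a window of Emp1, while another window of each of these genes holds 0. Both are written from 5′ to 3′ on the strand of the gene, the minus strand, with the motif in capitals. The window of Socs3 is chr11:117969317-117969616, where the motif starts 154 bases before the transcription start in RefSeq. That of Tgm1 is chr14:55713443-55713742, with motifs 173 and 64 bases before the start. In GENCODE M21 both genes begin further upstream, so that both windows lie within those gene bounds.
Socs3: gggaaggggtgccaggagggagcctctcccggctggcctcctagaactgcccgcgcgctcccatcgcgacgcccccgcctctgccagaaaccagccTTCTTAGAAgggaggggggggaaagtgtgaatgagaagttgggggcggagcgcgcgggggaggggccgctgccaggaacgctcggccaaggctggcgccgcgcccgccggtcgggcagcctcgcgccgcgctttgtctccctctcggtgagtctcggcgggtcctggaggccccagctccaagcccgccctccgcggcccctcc
Tgm1: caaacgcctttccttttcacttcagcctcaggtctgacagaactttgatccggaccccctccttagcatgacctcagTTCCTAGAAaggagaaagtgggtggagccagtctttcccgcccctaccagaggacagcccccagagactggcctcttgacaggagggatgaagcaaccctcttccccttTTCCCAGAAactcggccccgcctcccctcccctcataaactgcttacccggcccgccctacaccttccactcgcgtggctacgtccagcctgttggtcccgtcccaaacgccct

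Of the 13 structural, surface and secreted pan-reactive genes 0 passed edgeR's test in all 10 mice, while 10 were higher at an unadjusted p under 0.05 and DESeq2 called 10 (median log2FC 0.99). Without SOD1 G86R replicate 4, 9 of them passed. Replicate 4 lay within the WT range in 7. Gfap had the highest level per length of the 31 genes, with 621 CPM per kilobase of exon in the WT mean, followed by Serpina3n with 108 CPM, and Slc10a6 of the A2 set the lowest, with 0.0187 CPM.

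Gfap (ENSMUSG00000020932, chromosome 11 from 102887336 to 102900912), the main intermediate filament protein of astrocytes, was at 3076, 2982, 2310, 2496 and 2232 CPM in WT and at 6075, 4443, 4791, 2418 and 4757 CPM in SOD1 G86R mice. Its SOD1 G86R mice were above all WT mice with the exception of replicate 4, which lay amid them. The log2FC was 0.78 (SE 0.21, adjusted p = 0.0665 by edgeR), and 0.94 without replicate 4 (SE 0.11, adjusted p = 0.000154 by edgeR). With every mouse kept, Gfap thus missed the limit of 0.01 by edgeR but passed it by DESeq2 (log2FC 0.78, adjusted p = 0.00577 by DESeq2). The study, which used DESeq2, reports Gfap as up-regulated at that limit, with a smaller fold change than here. Vim, the filament protein of immature and reactive astrocytes, also made by endothelial and blood cells, was at 96.8, 94.5, 81.8, 87.1 and 74.4 CPM in WT and at 398, 275, 319, 77.6 and 400 CPM in SOD1 G86R mice. Replicate 4 lay within the WT range and the other 4 exceeded it by far. The log2FC of Vim was 1.76 (SE 0.39, adjusted p = 0.0401 by edgeR), and 2.0 without replicate 4 (SE 0.12, adjusted p = 5.15e-07 by edgeR). Nes encodes nestin, the filament protein of neural progenitors. It was at 21.6, 17.2, 21.1, 19.9 and 20.4 CPM in WT and at 70.6, 48.2, 41.4, 25.7 and 49.9 CPM in SOD1 G86R mice. All SOD1 G86R mice were above all WT mice, replicate 4 by the least. Nestin's log2FC was 1.24 (SE 0.22, adjusted p = 0.0124 by edgeR), and 1.39 without replicate 4 (SE 0.13, adjusted p = 2.21e-05 by edgeR). Synm, whose product synemin joins vimentin and desmin in filaments, was at 146 CPM in WT (SD 6.39, n = 5) and 149 CPM (SD 17.7, n = 5) in the SOD1 G86R group, with a log2FC of 0.03 (SE 0.08, adjusted p = 0.904 by edgeR). This was the smallest difference among the 17 pan-reactive genes and regulators.

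**Figure D2:**
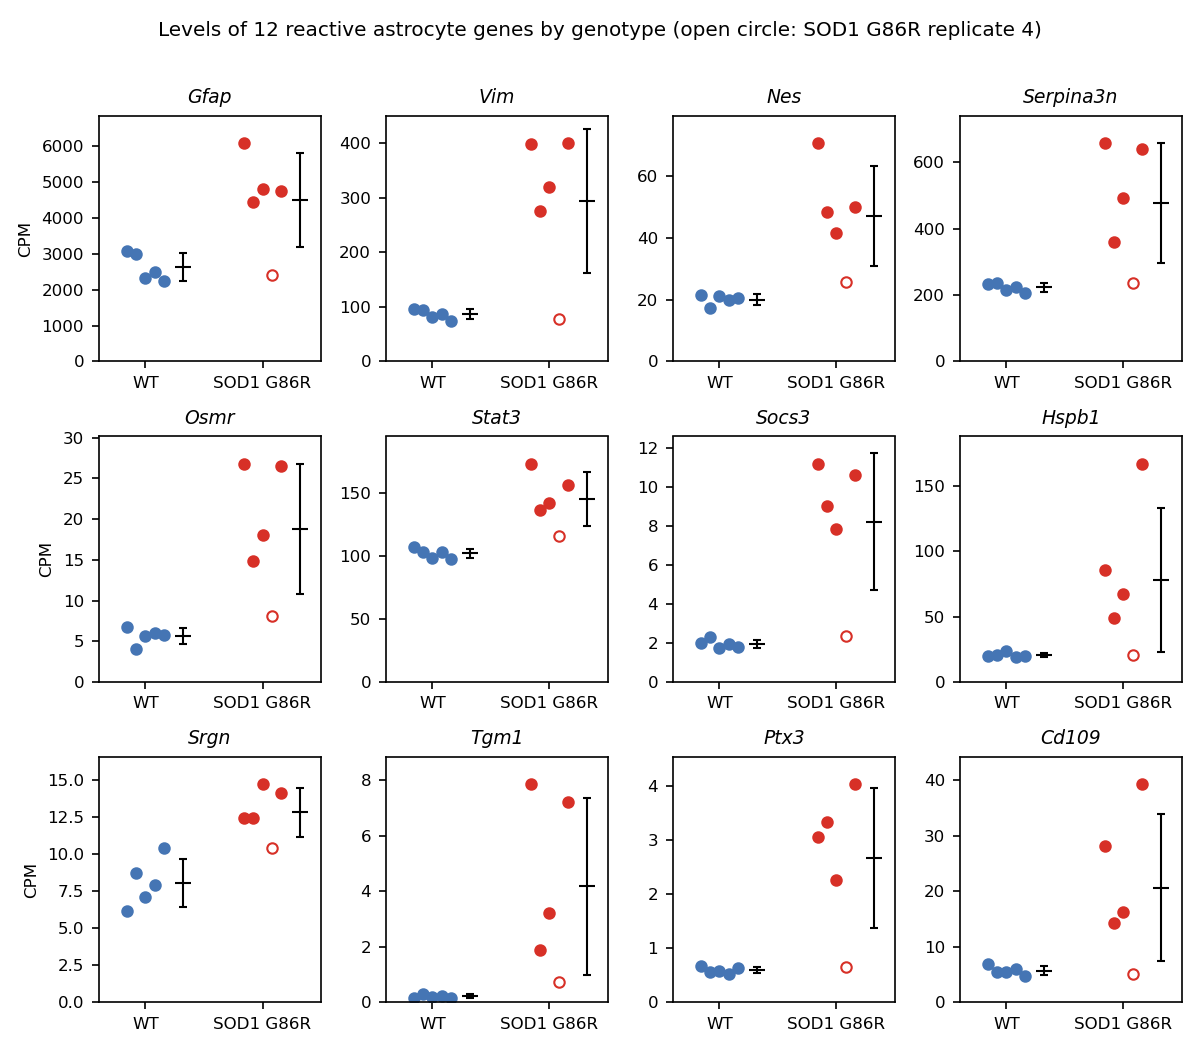
CPM of 12 of the 31 genes in each WT mouse (blue) and each SOD1 G86R mouse (red), with the mean and SD over the 5 mice in black and SOD1 G86R replicate 4 as an open circle. All 12 are among the 23 of the 31 genes in which replicate 4 was the lowest of its group, so the open circle is lowest in every panel. Genes with another lowest mouse, such as Il6st, Lcn2 and Amigo2, are not shown. For Vim the open circle is at 77.6 CPM, within the WT range of 74.4 to 96.8 CPM, and for Stat3 at 116 CPM, above all WT mice.

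Serpina3n, a secreted inhibitor of serine proteases, was at 234, 237, 216, 225 and 205 CPM in WT and at 657, 361, 492, 235 and 641 CPM in SOD1 G86R mice. The 4 mice other than replicate 4 were above all WT mice. Its log2FC was 1.10 (SE 0.26, adjusted p = 0.0454 by edgeR), and 1.27 without replicate 4 (SE 0.15, adjusted p = 0.000372 by edgeR). It shares 6.9% of its 50-base stretches with other genes, the most with Serpina3e-ps, so that reads from these stretches could have been assigned to them or discarded. Cd44, the receptor for hyaluronan, was at 23.8, 22.6, 17.0, 18.3 and 18.5 CPM in WT and at 56.7, 38.9, 35.9, 20.6 and 51.9 CPM in SOD1 G86R mice. Here too replicate 4 was the only SOD1 G86R mouse within the WT range. The log2FC of Cd44 was 1.03 (SE 0.24, adjusted p = 0.0434 by edgeR), and 1.19 without replicate 4 (SE 0.14, adjusted p = 0.000182 by edgeR).

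Hspb1, a small heat shock protein that protects the cytoskeleton, was at 20.1, 20.5, 23.8, 19.2 and 19.8 CPM in WT and at 85.8, 49.3, 67.0, 20.8 and 167 CPM in SOD1 G86R mice. The SOD1 G86R mice spread widely, from replicate 4 within the WT range to replicate 5, which had the highest level. Its log2FC was 1.92 (SE 0.48, adjusted p = 0.0669 by edgeR), and 2.16 without replicate 4 (SE 0.34, adjusted p = 0.00615 by edgeR). As 51.6% of the 50-base stretches of Hspb1 also occur in the processed pseudogene Hsp25-ps1, its level is uncertain. Hsp25-ps1 had 1 to 8 counts in WT libraries and 3 to 51 in those of SOD1 G86R mice, again with the fewest in replicate 4 and the most in replicate 5.

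Cp, ceruloplasmin, which binds copper and oxidises iron, was at 18.2, 15.9, 18.1, 19.6 and 20.6 CPM in WT and at 31.9, 27.7, 26.0, 21.0 and 41.0 CPM in SOD1 G86R mice. The groups did not overlap, though by little for replicate 4. Its log2FC was 0.67 (SE 0.15, adjusted p = 0.0246 by edgeR), and 0.77 without replicate 4 (SE 0.12, adjusted p = 0.00123 by edgeR). Aspg, an asparaginase, was at 12.6, 9.12, 9.47, 8.37 and 8.39 CPM in WT and at 25.6, 16.8, 17.1, 12.1 and 23.6 CPM in SOD1 G86R mice. WT replicate 1 stood above the other WT mice and above SOD1 G86R replicate 4. The log2FC of Aspg was 0.99 (SE 0.19, adjusted p = 0.015 by edgeR), and 1.11 without replicate 4 (SE 0.15, adjusted p = 0.000391 by edgeR). Chil1, a chitinase-like protein that astrocytes and macrophages secrete, was at 46.4, 40.1, 41.9, 40.9 and 39.1 CPM in WT and at 79.8, 51.0, 70.5, 42.7 and 57.5 CPM in SOD1 G86R mice. All but replicate 4 were above the WT mice. The log2FC of Chil1 was 0.53 (SE 0.14, adjusted p = 0.0621 by edgeR), and 0.63 without replicate 4 (SE 0.11, adjusted p = 0.00281 by edgeR).

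Steap4, Lcn2 and Tnc passed neither with nor without replicate 4. Steap4, a metalloreductase for iron and copper, had few counts, from 1 to 18 per WT library and from 13 to 44 per SOD1 G86R library, with a log2FC of 2.07 (SE 0.50, adjusted p = 0.0338 by edgeR). Replicate 4, at 1.01 CPM, was the median of its group and above the WT range, and replicate 3 was the lowest at 0.359 CPM. Tnc, the matrix glycoprotein tenascin C, had a log2FC of 0.59 (SE 0.28, adjusted p = 0.315 by edgeR). Lcn2, the siderophore-binding protein lipocalin 2, which neutrophils hold in large amounts, was at 5.83, 4.16, 4.71, 0.775 and 4.49 CPM in WT and at 3.66, 1.60, 3.73, 6.36 and 16.1 CPM in SOD1 G86R mice. The groups overlapped, and only replicates 4 and 5 of the SOD1 G86R mice exceeded the WT mice (log2FC 0.66, SE 0.67, adjusted p = 0.674 by edgeR). The summed level of 5 markers of blood neutrophils and monocytes was 60.4, 44.5, 56.4, 11.4 and 58.3 CPM in WT and 23.1, 13.0, 40.9, 77.4 and 55.4 CPM in SOD1 G86R mice. It was lowest where Lcn2 was lowest within WT, in replicate 4, and within SOD1 G86R mice, in replicate 2, whereas the highest Lcn2, of SOD1 G86R replicate 5, came with a sum within the WT range, and all 5 markers were detected. The part of blood cells in the level of Lcn2 was not tested.

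**Figure D3:**
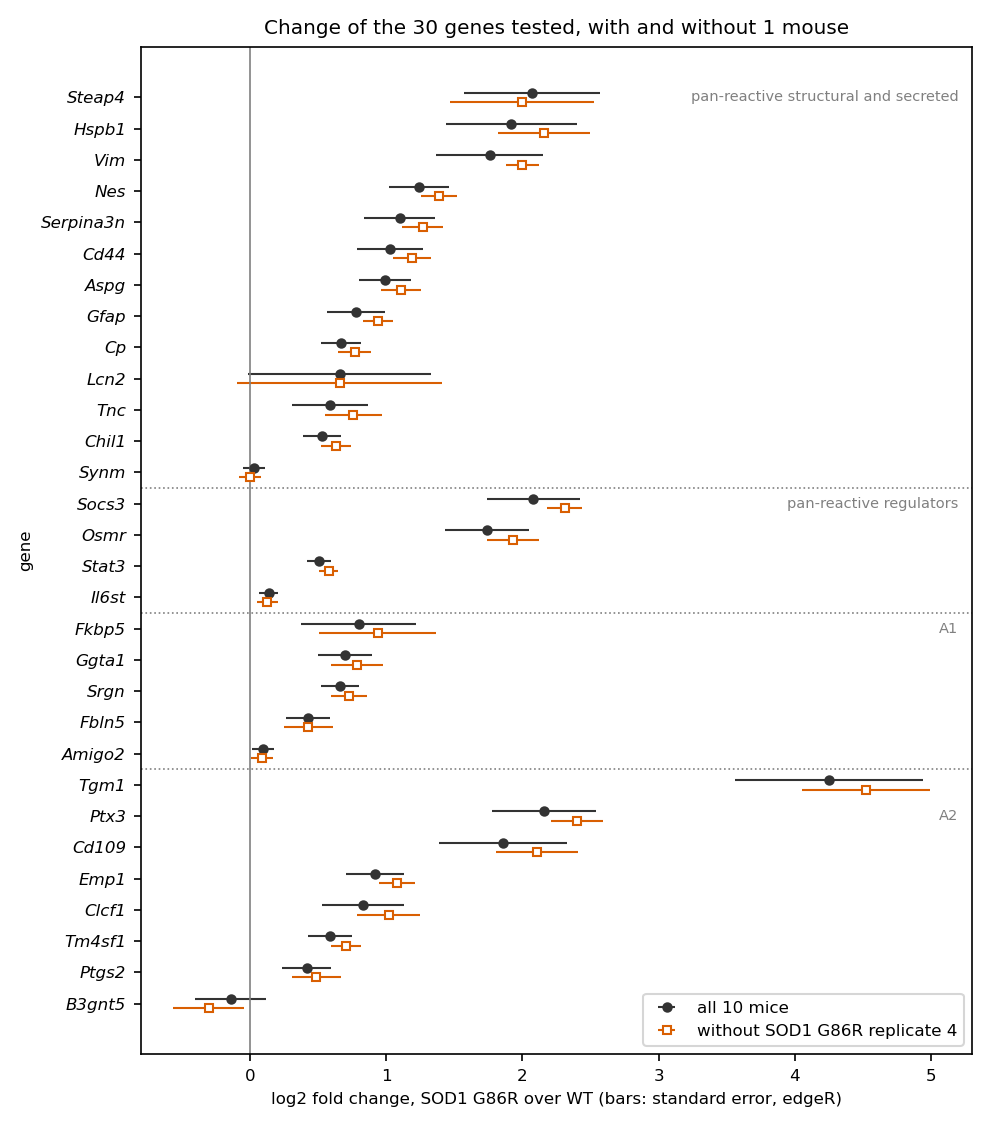
Log2FC of SOD1 G86R over WT (horizontal axis) with its standard error from edgeR for the 30 genes tested, grouped by role, in all 10 mice (filled circles) and without SOD1 G86R replicate 4 (open squares). The median is 0.79 with all mice and 0.94 without replicate 4, and for genes such as Vim the standard error narrows from 0.39 to 0.12.

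Among the 9 A2 genes, 8 were tested, 1 rose and 7 were higher at an unadjusted p under 0.05 (median log2FC 0.88). Without replicate 4, 5 passed and the groups did not overlap in 8 of the 9. Ptx3 (ENSMUSG00000027832, chromosome 3 from 66219910 to 66225805), the long pentraxin, a soluble pattern recognition molecule, was the gene that rose. It was at 0.682, 0.572, 0.577, 0.527 and 0.629 CPM in WT and at 3.06, 3.34, 2.26, 0.649 and 4.04 CPM in SOD1 G86R mice. The groups overlapped through replicate 4 alone, which lay among the WT mice. The ratio of the means was 4.47, a log2FC of 2.16 (SE 0.38, adjusted p = 0.00917 by edgeR), and 2.40 without replicate 4 (SE 0.19, adjusted p = 2.13e-06 by edgeR).

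Tgm1, a transglutaminase that cross-links proteins and is best known from the skin, had the largest log2FC of the 30 genes. Its level was 0.170, 0.318, 0.213, 0.248 and 0.152 CPM in WT and 7.86, 1.88, 3.23, 0.746 and 7.23 CPM in SOD1 G86R mice. The groups did not overlap, and replicate 4 too was above the highest WT mouse, at 3.39 times the WT mean. WT libraries held 5 to 10 counts of it and SOD1 G86R libraries 23 to 272. The log2FC of 4.25 just missed the threshold (SE 0.69, adjusted p = 0.0102 by edgeR), and was 4.52 without replicate 4 (SE 0.47, adjusted p = 9.08e-05 by edgeR). Cd109, a membrane protein that restrains TGF-beta signaling, was at 6.85, 5.40, 5.46, 6.11 and 4.73 CPM in WT and at 28.2, 14.3, 16.3, 5.12 and 39.3 CPM in SOD1 G86R mice. Replicate 4 lay within the WT range and the others well above it. The log2FC of Cd109 was 1.86 (SE 0.47, adjusted p = 0.0665 by edgeR), and 2.11 without replicate 4 (SE 0.30, adjusted p = 0.00181 by edgeR).

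Emp1, a small membrane protein of epithelia, was at 6.85, 9.21, 7.47, 7.19 and 7.85 CPM in WT and at 20.5, 16.5, 12.5, 7.72 and 15.7 CPM in SOD1 G86R mice. Only replicate 4 overlapped with WT. Its log2FC was 0.92 (SE 0.21, adjusted p = 0.0303 by edgeR), and 1.08 without replicate 4 (SE 0.13, adjusted p = 0.000111 by edgeR). Tm4sf1, a membrane protein also made by endothelial cells, was at 13.2, 13.6, 14.8, 16.8 and 18.3 CPM in WT and at 30.3, 23.8, 24.6, 14.7 and 22.2 CPM in SOD1 G86R mice. It too overlapped through replicate 4 alone. The log2FC of Tm4sf1 was 0.59 (SE 0.16, adjusted p = 0.0672 by edgeR), and 0.71 without replicate 4 (SE 0.11, adjusted p = 0.00105 by edgeR). Slc10a6, a transporter of sulfated steroids, was the gene that failed the filter. It had 0, 2, 2, 1 and 2 counts in WT and 13, 3, 11, 2 and 45 counts in SOD1 G86R mice. Its CPM did not overlap between groups, but in SOD1 G86R replicates 2 and 4 it rested on 3 and 2 counts. Of the remaining A2 genes, Clcf1, a ligand of the ciliary neurotrophic factor receptor, had a log2FC of 0.83 (SE 0.30, adjusted p = 0.17 by edgeR), and Ptgs2, the inducible cyclooxygenase, of 0.42 (SE 0.18, adjusted p = 0.237 by edgeR). B3gnt5, which starts the lacto-series of glycosphingolipids, was the 1 gene with a negative value, -0.14 (SE 0.26, adjusted p = 0.822 by edgeR), and at 0.337 to 0.811 CPM its SOD1 G86R mice spanned most of the WT range of 0.486 to 0.826 CPM.

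Of the 5 A1 genes 0 passed edgeR's test, 3 were higher at an unadjusted p under 0.05 and DESeq2 called 2 (median log2FC 0.66). Without replicate 4, 1 passed, Srgn, which also passed in all 10 mice when no filter on low counts was applied (adjusted p = 0.00727 by edgeR). Srgn encodes serglycin, the proteoglycan core of secretory granules, which blood cells and microglia also make. It was at 6.14, 8.74, 7.07, 7.94 and 10.4 CPM in WT and at 12.4, 12.4, 14.7, 10.4 and 14.1 CPM in SOD1 G86R mice. Replicate 4 exceeded the highest WT mouse by less than the rounding shows, so that the groups did not overlap by the smallest of margins. The log2FC of Srgn was 0.66 (SE 0.14, adjusted p = 0.0146 by edgeR), and 0.73 without replicate 4 (SE 0.13, adjusted p = 0.00297 by edgeR). Ggta1, the enzyme that makes the alpha-gal epitope, had a log2FC of 0.70 (SE 0.20, adjusted p = 0.0713 by edgeR), and all its SOD1 G86R mice but replicate 4 were above WT.

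Fkbp5, a co-chaperone of steroid receptors, was at 28.2, 25.1, 26.7, 27.3 and 27.8 CPM in WT and at 34.2, 25.7, 36.7, 26.6 and 111 CPM in SOD1 G86R mice. Its difference rested on replicate 5: the log2FC was 0.80 with all mice (SE 0.42, adjusted p = 0.381 by edgeR) and 0.19 without that mouse (adjusted p = 0.426 by edgeR). Fbln5, fibulin 5 of elastic fibres, was also highest in replicate 5, at 14.1 CPM against 6.97 to 8.95 CPM in the rest of its genotype and 6.54 to 7.26 CPM in WT (log2FC 0.43, SE 0.16, adjusted p = 0.19 by edgeR). Amigo2, an adhesion protein of neurons and astrocytes, was at 9.25 CPM in WT (SD 0.737, n = 5) and 9.93 CPM (SD 0.439, n = 5) in the SOD1 G86R group, with a log2FC of 0.10 (SE 0.08, adjusted p = 0.539 by edgeR).

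The strand setting of the counting is not given in the sources used here, and without strand, reads of a gene and its antisense neighbour cannot be told apart. Exons of Stat3 overlap those of Stat5a on the other strand by 72 bases, those of Cp overlap Hps3 by 108, of Synm Ttc23 by 84, of Amigo2 Pced1b by 58 and of Tgm1 the antisense RNA Gm49067 by 182. Clcf1 shares 14.6% of its 50-base stretches with an overlapping gene model.

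Of 16 markers of astrocytes as such, outside the 31 genes, 0 passed edgeR's test in all 10 mice, 3 were higher and 1 lower at an unadjusted p under 0.05, and the median log2FC was 0.03. Without SOD1 G86R replicate 4, 2 of the 16 passed, Aqp4 and Aldh1l1, and the median was 0.05. Their summed level was 11551 to 13323 CPM in WT and 12225 to 13380 CPM in SOD1 G86R mice, so that the groups overlapped. Aqp4, the water channel of astrocyte endfeet, had the smallest p of these, with a log2FC of 0.37 (SE 0.08, adjusted p = 0.0156 by edgeR), and 0.39 without replicate 4 (adjusted p = 0.0055 by edgeR). Aldh1l1, a folate enzyme used as an astrocyte marker, had a log2FC of 0.46 (SE 0.15, adjusted p = 0.115 by edgeR), and 0.56 without replicate 4 (adjusted p = 0.00729 by edgeR). DESeq2 called 1 of the 16 higher.

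Microglial markers moved with the 31 genes. Of 10 such markers 3 rose, Fcrls, Cx3cr1 and Siglech, and 10 of 10 had an unadjusted p under 0.05 with a positive log2FC, with a median log2FC of 0.93. Their summed level was 391 to 508 CPM in WT, 517 CPM in SOD1 G86R replicate 4 and from 757 up to 999 CPM in the remainder of that genotype, and each marker was detected. Several of the 31 genes, such as Stat3, Socs3, Vim and Srgn, are also expressed by microglia, and the part of microglial RNA in their levels was not tested. Of 7 markers of pericytes and smooth muscle 1 rose, Tagln, and of 8 endothelial and 8 fibroblast markers 0 passed edgeR's test, with 4 and 2 higher at an unadjusted p under 0.05 and 0 called by DESeq2. The summed levels of these 3 lists overlapped between genotypes, at 131 to 249 and 202 to 250 CPM, 196 to 330 and 292 to 328 CPM, and 104 to 126 and 115 to 155 CPM in WT and SOD1 G86R mice, respectively.

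**Figure D4:**
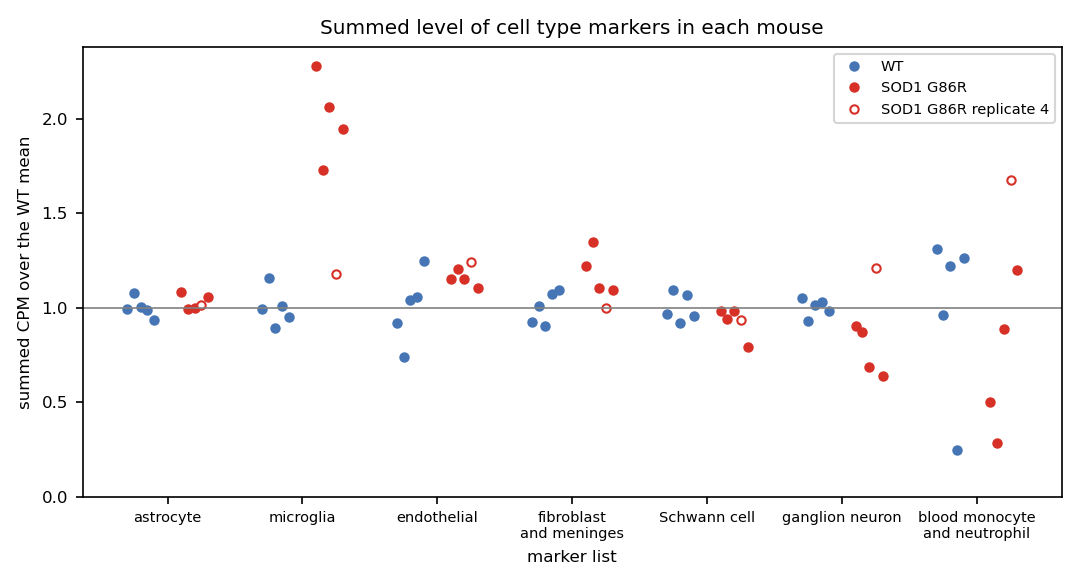
Summed CPM of 7 lists of cell type markers in each mouse, divided by the mean of the 5 WT mice (vertical axis), with WT in blue, SOD1 G86R mice in red and SOD1 G86R replicate 4 as an open circle. Astrocyte markers overlap between genotypes (11551 to 13323 and 12225 to 13380 CPM), while microglial markers are at 757 to 999 CPM in 4 SOD1 G86R mice and at 517 CPM in replicate 4, against at most 508 CPM in WT.

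The rest of the published panels, which is not among the 31 genes, was examined next to them. By limma voom no gene of these lists or of the marker lists passed. Of 6 tested genes of the A1 panel 0 passed edgeR's test in all 10 mice, 6 had an unadjusted p under 0.05 and a positive log2FC and DESeq2 called 6, with a median log2FC of 1.12, and 6 passed without SOD1 G86R replicate 4. The smallest p were those of Serping1, the inhibitor of complement C1 (log2FC 0.99, SE 0.18, adjusted p = 0.0106 by edgeR), H2-T23, a class I antigen (log2FC 1.14, SE 0.22, adjusted p = 0.0127 by edgeR), and Iigp1, an interferon-induced GTPase (log2FC 2.23, SE 0.53, adjusted p = 0.0496 by edgeR). These genes also belong to immune pathways that other cells use. Of the 3 tested genes of the pan-reactive panel 0 passed edgeR's test, 3 had an unadjusted p under 0.05 and a positive log2FC and DESeq2 called 3. Timp1, an inhibitor of matrix metalloproteinases, was at 0.542 CPM in WT (SD 0.138, n = 5) and 7.29 CPM (SD 4.7, n = 5) in the SOD1 G86R group, a log2FC of 3.77 (SE 0.63, adjusted p = 0.0118 by edgeR). Cxcl10, a chemokine for T cells, had a log2FC of 4.86 (SE 0.83, adjusted p = 0.0141 by edgeR), and S1pr3, a receptor of sphingosine-1-phosphate, of 0.94 (SE 0.21, adjusted p = 0.0254 by edgeR). All 3 passed without replicate 4. Of 3 further A2 genes 0 passed edgeR's test, DESeq2 called 1, and 2 were higher at an unadjusted p under 0.05: Cd14, the co-receptor for endotoxin, with a log2FC of 1.26 (SE 0.28, adjusted p = 0.0275 by edgeR), and S100a10, a partner of annexin, with 0.38 (SE 0.10, adjusted p = 0.0526 by edgeR).

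The known inducers of the A1 set and further genes of the interleukin-6 pathway were compared as well. Of 4 tested inducers 1 rose, Il1a, which encodes IL-1 alpha, with a mean of 0.81 CPM in WT (SD 0.15, n = 5) and of 2.55 CPM in the SOD1 G86R group (SD 0.972, n = 5), a log2FC of 1.67 (SE 0.28, adjusted p = 0.00663 by edgeR). The C1q chains C1qc and C1qa had log2FCs of 2.07 (SE 0.33, adjusted p = 0.0116 by edgeR) and 1.91 (SE 0.32, adjusted p = 0.0137 by edgeR), and 4 of 4 had an unadjusted p under 0.05. Tnf had too few counts to be tested. Among 19 tested genes of interleukin-6 family signaling 1 rose, Bcl3, a nuclear partner of NF-kappa-B, by 1.93 on the log2 scale (SE 0.28, adjusted p = 0.00448 by edgeR). A further 6 were higher and 1 was lower at an unadjusted p under 0.05, and the median was 0.13. Il6ra, the specific receptor of interleukin-6, had a log2FC of 0.72 (SE 0.15, adjusted p = 0.0167 by edgeR), and Cntfr, the receptor of ciliary neurotrophic factor, of -0.23 (SE 0.06, adjusted p = 0.0524 by edgeR). The ligand genes Il6, Osm and Cntf had too few counts for the test in all 10 mice. Without replicate 4, Osm, which encodes the ligand oncostatin M, entered the test and passed, with a log2FC of 1.96 (adjusted p = 0.00149 by edgeR). It had 3 to 9 counts per WT library, 5 in SOD1 G86R replicate 4 and 18 to 35 in the other SOD1 G86R libraries. Without that mouse 3 of the 20 genes tested passed, Bcl3, Il6ra and Osm, and 4 of the 4 inducers.

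Among 13 transcription factors linked to astrocyte reactivity 0 passed edgeR's test, 9 were higher at an unadjusted p under 0.05 and DESeq2 called 6, with a median log2FC of 0.32. Atf3, a stress-induced factor also known from injured neurons, had a log2FC of 3.71 (SE 0.66, adjusted p = 0.0169 by edgeR), Cebpd of 2.23 (SE 0.46, adjusted p = 0.0284 by edgeR) and Sox9, the factor that marks astrocyte nuclei, of 0.39 (SE 0.09, adjusted p = 0.0334 by edgeR). Without replicate 4, 5 of the 13 passed. Of 12 intermediate filaments other than the 4 above and proteins that link filaments, 0 passed edgeR's test, with or without replicate 4, or that of DESeq2 and 1 was higher at an unadjusted p under 0.05, Lmna, and the median log2FC was 0.01. Des, which encodes the muscle filament protein desmin, had the largest difference of these but spread widely: its WT mice lay at 0.744 to 14.4 CPM and its SOD1 G86R mice at 1.59 to 34.4 CPM (log2FC 1.61, SE 0.99, adjusted p = 0.461 by edgeR).

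**Figure D5:**
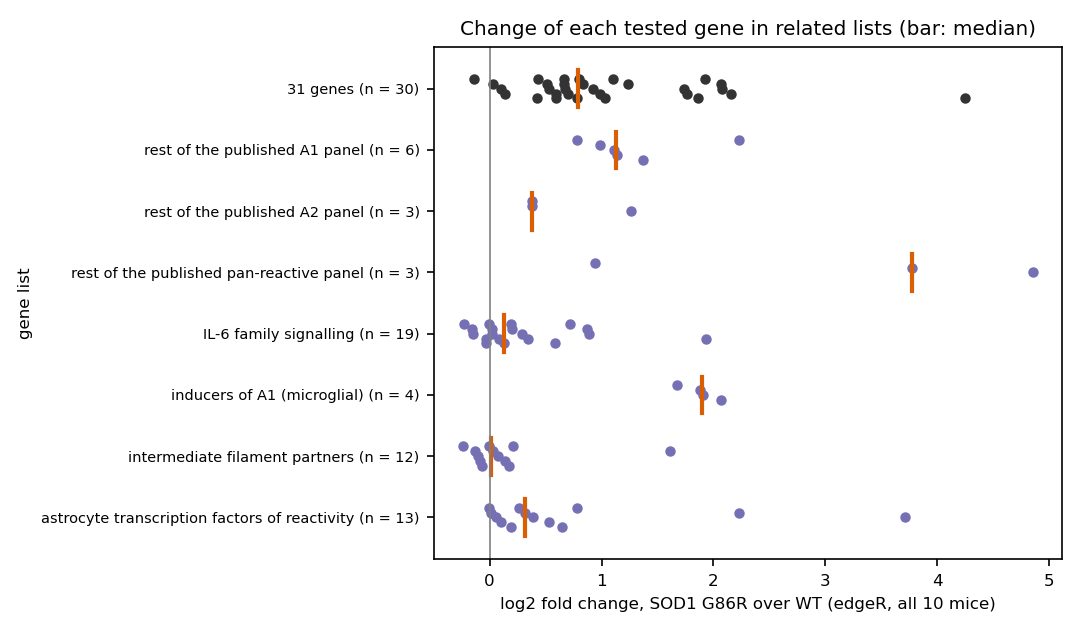
Log2FC of SOD1 G86R over WT (edgeR, all 10 mice, horizontal axis) for each tested gene of the 31 and of 7 related lists (vertical axis), with the median of each list as an orange bar. The median is 0.79 for the 30 genes tested, 1.12 for the rest of the A1 panel, 0.13 for interleukin-6 signaling and 0.01 for filament partners.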

How the data were processed

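Total RNA of lumbar spinal cord from 10 mice was sequenced by the authors, who used TopHat2 2.0.14 to place the reads on mm10 and HTSeq 0.6.1 with Ensembl annotation to assign them to genes. The authors deposited unnormalized counts for 32506 genes, and symbols were found for 32247. The kit used for the libraries and the strand setting of the counting are not given in any source used here.

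Counts were analysed in R 4.3.3 with edgeR 4.0.16 (filterByExpr, TMM, robust quasi-likelihood F test, Benjamini-Hochberg adjustment over all genes tested, threshold 0.01). Standard errors were derived from the F statistics. Alternatives were DESeq2 1.42.0, limma 3.58.1 (voom), median-ratio scaling, no filter, a fit without the robust option, the counts without Sod1 and Gm8566, a threshold of 0.05, the replicate number as a block, and each mouse left out in turn. Leaving out SOD1 G86R replicates 4 and 5 together was chosen after seeing the data. The edgeR step was tested on simulated data, and no 2 libraries were duplicates.

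The members and gene lists were chosen with earlier results of these data known. By rule, every mouse's value is given for genes that passed the test, whose groups did not overlap or whose call changed without SOD1 G86R replicate 4, other members are summarised (Lcn2 and Fkbp5, outside this rule, are given by mouse, chosen after their values were seen), and other lists name up to 3 genes by the smallest p (Aldh1l1, Osm and Des were added after their values were seen). Precision is limited for weakly expressed genes by library sizes, which were 29333590 to 46003999. Proteins were not analysed here.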

Additional observations from a re-analysis of the deposited data

Results flagged for a closer look

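Within a genotype, 6 of the 62 groups of 5 values (31 genes in WT and in SOD1 G86R mice) held 1 mouse far from the others by Dixon's ratio of gap to range (critical value 0.71), and chance flags about 1 in 20 groups. In SOD1 G86R replicate 5, Fkbp5 was at 111 CPM against 25.7 to 36.7 CPM in the rest of its group, and Fbln5 was at 14.1 CPM against 6.97 to 8.95 CPM. Il6st was at 127 CPM in SOD1 G86R replicate 3 and at 161 to 169 CPM in the others. Among WT mice, replicate 1 had the highest Aspg, 12.6 CPM, and the highest Tnc, 10.2 CPM, and it had the highest level of its group in 16 of the 31 genes. Hspb1 was at 23.8 CPM in WT replicate 3 and at 19.2 to 20.5 CPM in the other WT mice.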

How the results depend on the processing

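All 10 mice gave 147 genes higher and 43 lower, with 3 of the 31 genes called. The respective values were 731, 107 and 21 by DESeq2, 29, 30 and 0 by limma voom (23 of the 31 genes higher at an unadjusted p under 0.05), 254, 44 and 7 without the robust option, 654, 127 and 14 at a threshold of 0.05, and 735, 84 and 18 without SOD1 G86R replicates 4 and 5. With 1 mouse left out they ranged from 12 to 782 higher, 19 to 86 lower and 0 to 18 of the 31 genes, the highest values without SOD1 G86R replicate 4, and the cause of its position was not tested. Median-ratio scaling called 4 of the 31 genes (Tgm1 in addition to Stat3, Socs3 and Ptx3), and the counts without Sod1 and Gm8566 called Stat3, Socs3 and Ptx3. Without the filter 2 were called, Stat3 and Srgn, while the adjusted p was 0.0279 for Socs3 and 0.0205 for Ptx3. The direction reversed in 3 genes, none of which passed: with 1 mouse left out the log2 fold change ranged from -0.06 to 0.91 for Lcn2, -0.03 to 0.08 for Synm and -0.30 to 0.00 for B3gnt5, and without SOD1 G86R replicates 4 and 5 it was -0.42 for Lcn2 and -0.08 for Synm. With the replicate block, 109 genes were higher, 31 lower and 3 of the 31 genes passed (Stat3, Aspg and Ptx3), while the adjusted p of Socs3 was 0.0347. The replicate numbers showed no clear pairing of the mice. Deviations of same-numbered mice correlated by 0.052, 0.261, -0.138, 0.06 and -0.37, and in 0 of 5 pairs were both mice each other's best match. SOD1 G86R replicate 1 correlated best with WT replicate 1, at 0.052, but that WT mouse correlated more with SOD1 G86R replicate 5, at 0.378. Depth limits genes with few counts, such as Slc10a6 and Steap4.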

Other observations

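Fkbp5 is known as a gene that glucocorticoids induce. The other genes known for this that are named here are no independent support. They were chosen after their own values, and that of Fkbp5 in SOD1 G86R replicate 5, had been seen. In that mouse Sgk1, a kinase of ion transport, was at 337 CPM, where the rest of its group had 42.5 to 164 CPM and WT mice had 37.5 to 132 CPM. Zbtb16, a transcription factor, was at 52.9 CPM against 11.7 to 26.9 CPM and 12.6 to 17.8 CPM, and Plin4, a coat protein of lipid droplets, at 148 CPM against 5.25 to 24.7 CPM and 4.68 to 10.1 CPM. Pdk4, which restrains glucose oxidation, was at 135 CPM against 28.5 to 58.9 CPM and 32.9 to 38.6 CPM. Tsc22d3, which is known for the same induction, was at 229 CPM, close to the 161 to 213 CPM of its group and the 170 to 225 CPM of WT. These values come from 1 mouse and were not tested.

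Neighbours of Serpina3n in its gene cluster were looked at too, also chosen after their values had been seen. Serpina3m was at 5.68 to 7.40 CPM in WT and 7.78 to 20.1 CPM in SOD1 G86R mice (log2 fold change 1.10, edgeR adjusted p = 0.0254), and Serpina3f at 6.47 to 8.32 CPM and 8.37 to 22.2 CPM (log2 fold change 1.07, edgeR adjusted p = 0.0258). In both genes SOD1 G86R replicate 4 was the lowest of its group. It was not the lowest for Serpina3i, at 0.973 CPM against 0.702 CPM in the lowest mouse (log2 fold change 1.44, edgeR adjusted p = 0.0221). Nor was it for Serpina3g, at 0.486 against 0.379 CPM (log2 fold change 1.36, edgeR adjusted p = 0.0505). For Serpina3h it was at 1.82 CPM in a range of 0.926 to 2.61 CPM (log2 fold change 0.88, edgeR adjusted p = 0.0826). Serpina3e-ps had the largest log2 fold change of these, 1.61 (edgeR adjusted p = 0.0115), with replicate 4 again the lowest at 0.746 CPM. Replicate 4 was also the lowest for Serpina3k, which had too few counts to be tested. How many of these reads came from Serpina3n itself was not tested.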
